A study of Mus musculus with 2 samples.

Results

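The receptors that carry growth factor signals into myeloid cells were examined in sorted macrophages of mice carrying acute myeloid leukaemia. The group held 8 genes chosen by name (Csf1r, Csf2ra, Csf2rb, Csf2rb2, Csf3r, Flt3, Kit and Epor) among 16428 genes with a read in at least 1 library, and all 8 had reads in both libraries. GFP+ leukaemia cells of the MLL-AF9 model, in which a fusion oncogene drives the disease, were transplanted at 500000 cells per mouse into C57BL/6J mice aged 6 to 8 weeks that received no irradiation. All mice became ill and lived 25 to 30 days. Macrophages were sorted at day 15, and 1 RNA-seq library was made from bone marrow and 1 from spleen. Both libraries came from leukaemic mice, so neither is a healthy control. The sort gates and the number of mice behind each library are not given here, and with 1 library per tissue each difference reported sets 1 library against the other, without a replicate check.

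Myeloid growth factor receptors fall into 2 structural classes. Csf1r, Kit and Flt3 are receptor tyrosine kinases whose ligands (CSF1 and IL-34, stem cell factor, and FLT3 ligand) pair up receptor chains that then phosphorylate each other. Csf2ra, Csf2rb, Csf2rb2, Csf3r and Epor are cytokine receptors without a kinase of their own, which signal through bound JAK kinases and STAT factors. CSF1 signalling maintains most tissue macrophages, G-CSF acting on Csf3r drives neutrophil production, and Kit marks stem cells, early progenitors and mast cells.

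The effective depths of the libraries, after scaling, were 9405947 uniquely placed reads for marrow and 8457857 for spleen. All 17 macrophage marker genes had reads in both libraries, but Marco, a scavenger receptor, had 1 read in marrow and 94 in spleen. Markers of other cell types were abundant. Their summed level in CPM, the read count scaled to a common library size, was 34850 for 10 late neutrophil genes in marrow and 2030 in spleen, and 4511 for 8 B cell genes in spleen and 394 in marrow, against 493 and 1186 CPM for the 17 macrophage genes in marrow and spleen. In such bulk samples, fewer cells of a type and less RNA per cell cannot be told apart. Whether GFP+ leukaemia cells gave any of the reads on the 8 receptors was not tested.

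Of the 8 receptors, 1 was at least 2-fold higher in marrow, 0 passed that limit towards spleen and 7 lay inside it. Among the 12970 measured genes, those reaching 1 CPM and 10 reads in either library, 14.1 percent were at least 2-fold higher in marrow and 14.6 percent in spleen, so a single receptor past the limit is near what the background share would give. Csf3r was the receptor past the limit. The median difference over the 8 receptors was 0.42 on the log2(CPM + 1) scale, marrow minus spleen, against 0.03 over all measured genes. Smaller differences went both ways: with Csf3r included, 6 receptors had the higher CPM in marrow and 2, Csf1r and Flt3, in spleen. Epor is among the 6, at a ratio of 1.03 (0.707 to 1.49), and so had no settled direction.

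**Figure D1:**
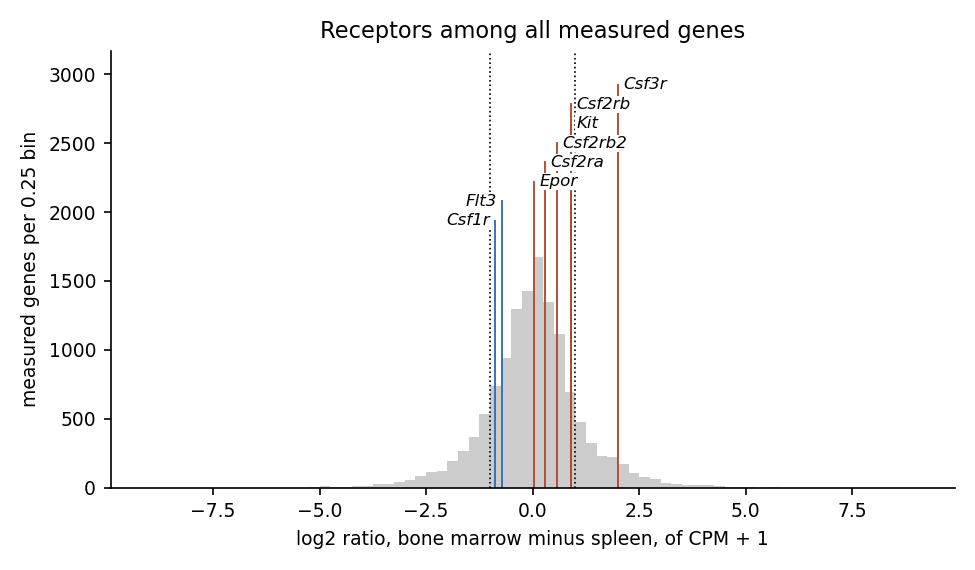
Grey bars count the 12970 measured genes by their log2 difference of CPM + 1 between the marrow and the spleen library (x axis), and each vertical line is 1 receptor. Line heights only separate the names; dotted lines mark 2-fold. Csf3r at 2.01 is the 1 receptor outside the dotted lines, and Csf1r at -0.89 is the lowest.

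Levels of different genes were compared in RPKM, which scales reads to gene length and library size. In marrow Csf2ra, the GM-CSF receptor alpha chain, stood first at 89.6 RPKM (95% counting interval 85.3 to 94.1). Csf2rb followed at 65.9 RPKM, Csf3r at 63.8, Csf1r at 49.6 and Kit at 47.4. Flt3 at 19.0 RPKM, Csf2rb2 at 16.9 and Epor at 3.69 closed the order. Neighbours in that order differed beyond counting error except for Csf2rb against Csf3r, a ratio of 1.03 (0.980 to 1.09), and Csf1r against Kit, a ratio of 1.05 (0.984 to 1.11). Flt3 stood above Csf2rb2 by a ratio of 1.12 (1.01 to 1.25), and this place turns when reads that fit another gene equally well are allowed for: with length counted only where a read can be placed uniquely, Csf2rb2 was at 21.1 RPKM and Flt3 at 0.898 of it (0.808 to 0.998). The same correction set Csf2rb above Csf3r by 1.13 (1.07 to 1.19). In spleen Csf1r came first at 96.2 RPKM (92.9 to 99.7) and Csf2ra second at 77.0. Csf2rb at 36.7 RPKM, Flt3 at 33.0 and Kit at 26.5 formed the middle, ahead of Csf3r at 16.4, Csf2rb2 at 11.9 and Epor at 3.77. All neighbours in the spleen order differed beyond counting error, the closest being Csf2rb against Flt3 at a ratio of 1.11 (1.02 to 1.21), and the correction left that order as it was. Csf1r was thus at rank 4 in marrow and rank 1 in spleen, and Csf3r at rank 3 in marrow and rank 6 in spleen. Reads covered between 80.9 and 99.6 percent of the length of each receptor gene.

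**Figure D2:**
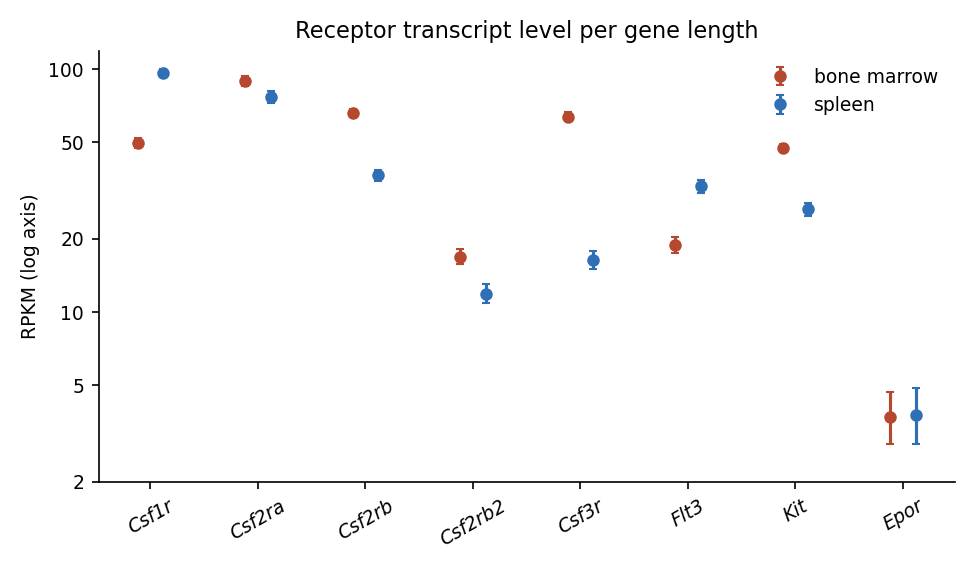
RPKM (y axis, log scale) of each receptor (x axis) in the marrow and spleen libraries, 1 library each. Bars are exact Poisson 95% intervals and cover counting error only. Csf3r, at 63.8 and 16.4 RPKM, shows the widest gap, and the intervals of Epor, at 3.69 and 3.77 RPKM, overlap.

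Csf3r, the receptor for granulocyte colony-stimulating factor, had the largest difference of the group. It had 2423 reads in marrow and 534 in spleen, or 258 and 63.1 CPM. Marrow was 4.08-fold higher (95% exact conditional binomial interval 3.71 to 4.49, counting error only), and 4.36 percent of measured genes had a larger difference towards marrow. Neutrophils and their precursors carry this receptor, and their marker genes were higher in the same library. All 6 granulocyte precursor genes were at least 2-fold higher in marrow (median log2 difference 5.45), as were 9 of 10 late neutrophil genes (median 3.99), with no marker of either list at 0 reads. Cxcr2, a chemokine receptor of mature neutrophils, was at 74.4 and 18.0 CPM, a log2 difference of 1.99 beside the 2.01 of Csf3r. It was named after its value was seen, and differences in the late neutrophil list ran from 0.48 to 4.30. The primary granule enzyme Mpo differed by 6.36. The part of these cells, or of leukaemia cells, in the Csf3r difference was not tested.

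Csf1r, the receptor for CSF1 and IL-34 and the defining growth factor receptor of macrophages, was higher in spleen. It had 1849 reads in marrow and 3082 in spleen, or 197 and 364 CPM, a 1.85-fold difference (1.75 to 1.96) within the 2-fold limit. Macrophage markers leaned the same way by a wider margin: 12 of 17 were at least 2-fold higher in spleen, 0 in marrow, and their median log2 difference was -1.34 against -0.89 for Csf1r. Adgre1, which encodes F4/80, differed by -1.41 and the resident macrophage regulator Spic by -2.93. The 5 genes within 2-fold were Cd68 (-0.96), Vcam1 (-0.92), C1qb (-0.90), Siglec1 (-0.05) and Fcgr1 (0.004). Whether the listed genes mark macrophages of both tissues equally was not tested. Monocytes also carry Csf1r, and monocyte genes were divided, with 2 of 7 higher in marrow, 2 in spleen and a median of 0.16. F13a1 and Ly6c2, of classical monocytes, differed by 2.21 and 1.50, and Treml4 and Nr4a1, of non-classical monocytes, by -1.45 and -1.12. The part of either cell type in the Csf1r level was not tested. Annotated exons of Csf1r and Hmgxb3, on opposite strands, overlap, and the counting is not stated to use strand. The Csf1r transcript nearest the deposited length, of 3870 bases, shared 0 of its 3822 windows of 49 bases with other genes on either strand. Hmgxb3 was at 52.0 CPM in marrow and 59.4 CPM in spleen.

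The balance between Csf1r and Csf3r does not depend on library scaling, since both are read in the same library. In marrow Csf1r stood at 0.777 of the Csf3r level per length (0.731 to 0.826), and in spleen at 5.88 times that level (5.36 to 6.46). Of the reads on the pair, Csf1r held 43.3 percent in marrow (Clopper-Pearson 95% interval 41.8 to 44.8) and 85.2 percent in spleen (84.0 to 86.4). The ratio of Csf1r to Csf3r was therefore 7.56-fold higher in spleen (6.77 to 8.46). The pair joins the lowest and the highest of the 8 log2 differences, so this value restates those differences. On uniquely placeable length Csf1r stood at 0.683 of Csf3r in marrow and 5.17 times it in spleen.

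**Figure D3:**
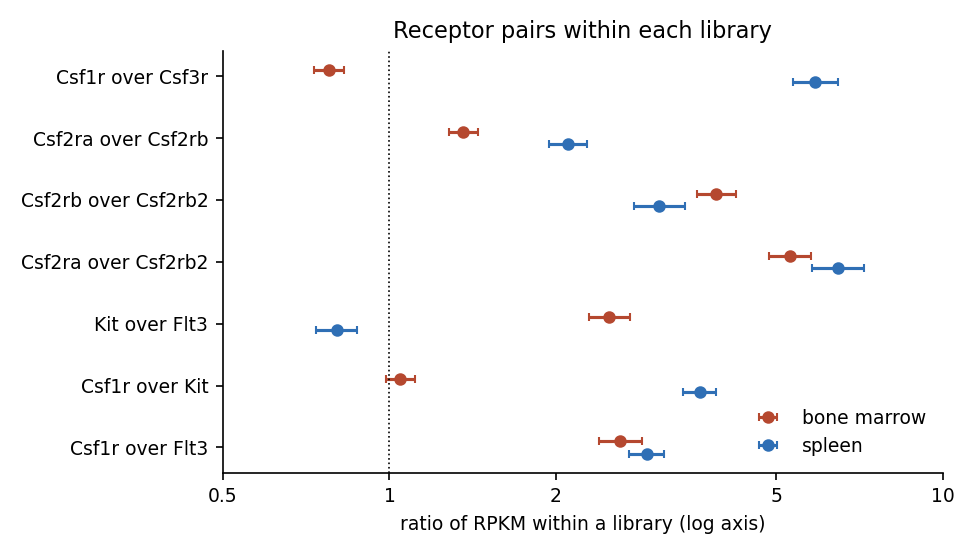
Ratio of RPKM between 2 receptors of the same library (x axis, log scale) for 7 receptor pairs (y axis) in marrow and spleen, 1 library each, with 95% counting intervals. Csf1r over Csf3r lies at 0.777 in marrow and 5.88 in spleen, on opposite sides of the dotted line at 1, as does Kit over Flt3 at 2.50 and 0.803.

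GM-CSF binds a receptor made of Csf2ra, which gives specificity, and Csf2rb, the common beta chain that IL-3 and IL-5 receptors also use. Mice have a further beta chain, Csf2rb2, which serves IL-3 alone. Csf2ra had 1596 reads in marrow and 1178 in spleen, or 170 and 139 CPM, a 1.22-fold difference towards marrow (1.13 to 1.31). Csf2rb had 3030 and 1447 reads, or 322 and 171 CPM, and was 1.88-fold higher in marrow (1.77 to 2.01). Csf2rb2 had 752 and 455 reads, or 79.9 and 53.8 CPM, and was 1.49-fold higher (1.32 to 1.67). All 3 chains were thus higher in marrow and within 2-fold. Per length, the alpha chain exceeded the common beta chain 1.36-fold in marrow (1.28 to 1.45) and 2.10-fold in spleen (1.94 to 2.27), so the alpha-to-beta ratio was 1.55-fold higher in spleen (1.40 to 1.71). The excess itself is smaller on uniquely placeable length, 1.10-fold in marrow (1.03 to 1.16) and 1.69-fold in spleen (1.57 to 1.83). The common beta chain exceeded Csf2rb2 3.90-fold in marrow (3.60 to 4.23) and 3.08-fold in spleen (2.77 to 3.42).

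Csf2rb and Csf2rb2 are close copies, which matters for counts of uniquely placed reads. A gene covered by 1 read was covered over 49 bases in 1045 of 1046 such genes in marrow and 1037 of 1042 in spleen, which gives the read length. In GENCODE M21 transcripts, 19.4 percent of the 49-base windows of Csf2rb occur also in other genes, and 911 of those 915 windows occur in Csf2rb2. For Csf2rb2 the share was 19.9 percent. The aligned coding sequences were identical at 95.2 percent of 2628 positions, with a longest shared run of 242 bases. The 60 aligned coding bases with the most differences are shown because reads from such a stretch can be told apart (capitals mark the 13 bases that differ, and positions count from 1 at the start codon, from base 304 in Csf2rb and 307 in Csf2rb2).
Csf2rb: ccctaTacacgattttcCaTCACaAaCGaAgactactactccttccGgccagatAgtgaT
Csf2rb2: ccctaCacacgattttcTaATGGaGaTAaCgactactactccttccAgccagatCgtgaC
Reads from the shared run cannot be assigned to either gene and are missing from both counts. Since both lose nearly the same share of windows, counting only uniquely placeable length cannot move their ratio by much, and it bears instead on how they compare with the other receptors. Of those, Csf3r shared 12.1 percent of its windows with other genes, 342 of 416 with AC105061.2, annotated as a processed pseudogene, and the remaining 5 shared 0 percent.

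Kit and Flt3, receptors of stem and progenitor cells, leaned in opposite directions. Kit, the stem cell factor receptor, had 2373 reads in marrow and 1139 in spleen, or 252 and 135 CPM, and was 1.87-fold higher in marrow (1.74 to 2.01). Flt3, which also supports dendritic cells and lymphoid progenitors, had 669 and 999 reads, or 71.1 and 118 CPM, and was 1.66-fold higher in spleen (1.50 to 1.83). Kit exceeded Flt3 2.50-fold per length in marrow (2.29 to 2.72), whereas in spleen Kit stood at 0.803 of the Flt3 level (0.737 to 0.875). The ratio of Kit to Flt3 differed 3.11-fold between the libraries (2.75 to 3.52).

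Basophil and eosinophil genes differed more than Kit, while most mast cell proteases had few reads or none. Of 9 measured genes of the mast cell, basophil and eosinophil list, 8 were at least 2-fold higher in marrow (median log2 difference 5.21). Prss34 and Mcpt8, basophil proteases, differed by 6.01 and 5.55, the eosinophil granule genes Epx and Prg2 by 5.66 and 5.51, and Cpa3, a protease of mast cells and basophils, was at 198 and 4.37 CPM. The mast cell proteases Tpsab1 and Mcpt4 had 0 reads in both libraries, Tpsb2 had 1 read in marrow and 0 in spleen, and Cma1, with 6 and 26 reads, was the 1 gene of the list higher in spleen. Of 9 progenitor genes, 7 were higher in marrow (median 2.86), including Cd34 at 257 and 6.15 CPM, and Ly6a, which lymphocytes also express, was higher in spleen at 182 against 30.0 CPM. Against these medians the Kit difference was 0.90. For Flt3, 9 of 10 conventional dendritic cell genes were higher in spleen (median -2.94), led by Fscn1 at 104 against 2.45 CPM, while the 5 plasmacytoid dendritic cell genes all lay within 2-fold (median -0.38). Of 6 B cell precursor genes 5 were higher in marrow (median 2.96). The part of these cells, or of leukaemia cells, in the Kit and Flt3 differences was not tested.

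Epor, the erythropoietin receptor of erythroid precursors, was the lowest receptor in both libraries. It had 65 reads in marrow and 57 in spleen, or 6.91 and 6.74 CPM, or 1.03 times the spleen level in marrow (0.707 to 1.49). The interval held equal levels, so a difference of that size was not detectable at this depth. Erythroid genes lay close together as well: 9 of 10 were within 2-fold, 1 (Alas2) was higher in spleen, and the median was 0.03.

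Sequences upstream of the receptor genes were available for 6 of the 8 members in RefSeq windows of 300 bases on GRCm38.p6. Of each window, 250 bases lie before the start. Csf1r and Csf2rb had no window and were not searched. The macrophage and granulocyte factor PU.1, encoded by Spi1, is known to act at several myeloid receptor promoters, and its core letters GAGGAA were searched on both strands. They occurred before the start in Csf3r, Csf2ra, Csf2rb2 and Kit, and in 23.3 percent of all 32851 such windows of the genome. The GATA letters AGATAA occurred before the start of Epor alone among the 6 and in 9.99 percent of all windows, and the RUNX letters TGTGGT likewise in Epor alone and in 14.0 percent. Stretches of 30 bases around the PU.1 matches, and 250 bases for Epor, are printed on the strand of the gene because Spi1 and the GATA genes are compared below. Capitals mark every match of the 3 motifs in the bases printed. A match is a description of letters, not a bound site. In GENCODE M21 the Csf3r stretch lies within an annotated exon and the Csf2ra stretch overlaps one by 11 bases, while the others touch none. The match of Csf2rb2 is on the opposite strand and so reads TTCCTC. Those of Epor are too, where the GATA letters read TTATCT and the RUNX letters read ACCACA.
Csf3r, chr4:126024561-126024590, plus strand: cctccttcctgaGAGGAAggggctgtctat
Csf2ra, chr19:61228419-61228448, minus strand: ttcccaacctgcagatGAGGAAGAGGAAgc
Csf2rb2, chr15:78305871-78305900, minus strand: ctctgtgtctgcTTCCTCcagagaagtcag
Kit, chr5:75574752-75574781, plus strand: ggagagtgctagGAGGAAgaggatccaggg
Epor, chr9:21963577-21963826, minus strand, the whole 250 bases before the start: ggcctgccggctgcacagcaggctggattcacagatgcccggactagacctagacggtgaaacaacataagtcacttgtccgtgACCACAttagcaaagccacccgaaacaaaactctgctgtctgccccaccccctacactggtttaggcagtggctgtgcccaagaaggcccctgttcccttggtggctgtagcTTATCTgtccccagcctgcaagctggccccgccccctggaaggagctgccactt
The first PU.1 match began 86 bases before the start in Csf3r, 167 in Csf2rb2 and 223 in Kit, and Csf2ra held adjoining matches at 14 and 8 bases. The GATA match of Epor began 54 bases before the start and its RUNX match 166.

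Of 14 transcription regulators of myeloid and erythroid receptor genes, 6 were at least 2-fold higher in marrow, 2 in spleen and 6 lay within 2-fold (median log2 difference 0.75). Spi1 was at 284 CPM in marrow and 184 CPM in spleen, a log2 difference of 0.62. Receptors with a PU.1 match differed by 0.28 (Csf2ra), 0.56 (Csf2rb2), 0.90 (Kit) and 2.01 (Csf3r). Flt3 and Epor, searched without a PU.1 match, differed by -0.72 and 0.03. Csf1r and Csf2rb, which were not searched, differed by -0.89 and 0.91. A link between Spi1 and these receptors was not tested. Cebpe and Cebpa, regulators of granulocyte maturation and commitment, were at 200 and 183 CPM in marrow and at 7.21 and 23.6 CPM in spleen. Gata2, a stem, mast cell and basophil factor, was at 244 and 9.93 CPM, and Gata1, the erythroid and megakaryocyte factor, at 31.0 and 7.92 CPM. Both GATA genes were thus higher in marrow. Epor differed by 0.03, and a link between the GATA genes and Epor was not tested. Irf8, a monocyte and dendritic cell factor, and Egr2 were the 2 genes higher in spleen, at 420 and 21.3 CPM against 169 and 5.63 CPM.

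Transcripts of the ligands were few. Of 10 ligand genes, 3 were measured. Csf1, the ligand of Csf1r, was at 49.5 CPM in marrow and 11.7 CPM in spleen, so that marrow was 4.23-fold higher (3.40 to 5.31), the opposite direction to its receptor. Flt3l, the ligand of Flt3, was at 10.7 CPM in marrow and 33.9 CPM in spleen, higher in the same library as its receptor. Kitl, the stem cell factor gene, had 9 and 23 reads and lay within 2-fold on the log2(CPM + 1) scale. Its CPM ratio was 2.84-fold higher in spleen (1.27 to 6.98), the opposite direction to Kit, at few reads. Csf2, which encodes GM-CSF, had 9 and 4 reads, and Csf3, which encodes G-CSF, had 0 and 1. Il34, Il3, Il5, Epo and Thpo had 0 reads in both libraries, which allows up to 0.319 CPM in marrow and 0.355 CPM in spleen (3 reads, counting error only).

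Of 5 receptors closely related to the group, 4 were measured and all 4 were past 2-fold. Il3ra, the IL-3 receptor alpha chain that pairs with Csf2rb and Csf2rb2, was at 45.8 CPM in marrow and 19.3 CPM in spleen. Il5ra, the IL-5 receptor alpha chain that pairs with Csf2rb, went the other way, at 5.42 and 23.6 CPM. The stromal kinase receptor Pdgfrb was at 32.5 and 2.01 CPM, and Pdgfra had 0 reads in both libraries. Of these relatives, 3 were past the limit towards marrow and 1 towards spleen, with a median of 2.34.

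Signalling genes downstream of the receptors mostly lay within the 2-fold limit, some of them close to it. Of 23 proximal signalling genes, 20 lay within 2-fold, 1 was higher in marrow and 2 in spleen (median -0.20). Within the limit, Pik3cd was 1.97-fold higher in spleen (1.89 to 2.06) and Jak1 1.86-fold (1.78 to 1.94). Ptpn11 was 1.48-fold higher in marrow (1.38 to 1.59). Gab2, an adaptor of Kit and cytokine receptors, was at 59.5 and 28.8 CPM in marrow and spleen, and Jak2, the kinase bound to Csf2rb and Epor, at 146 and 297 CPM. Stat5a and Stat5b, the main STAT factors of these cytokine receptors, lay within 2-fold at 93.3 and 159 CPM in marrow and 75.9 and 171 CPM in spleen. Among 16 negative regulators, 3 were past 2-fold towards spleen, 0 towards marrow and 13 lay between (median -0.43). The 3 were Cblb, a ubiquitin ligase, at 50.6 and 148 CPM, Socs1, a JAK inhibitor, at 8.40 and 21.4 CPM, and Sh2b3, an adaptor that restrains Kit signalling, at 73.3 and 162 CPM. Cblb and Socs1 act in lymphocytes too, and all 8 T cell and all 8 B cell markers were higher in spleen (medians -3.08 and -3.61); their part was not tested.

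Genes that respond to growth factor signals were divided. Of 14, 4 were higher in marrow, 2 in spleen and 8 lay within 2-fold (median 0.40). Osm and Id1, which STAT5 signalling and BMP-type signals can respectively induce, were at 49.4 and 13.3 CPM in marrow against 13.6 and 2.48 CPM in spleen. Ccnd3, a G1 cyclin, was at 520 and 164 CPM and Myc at 253 and 118 CPM. Mcl1, a survival factor, and Bcl6, a repressor of germinal centre B cells, were the 2 higher in spleen, at 941 and 102 CPM against 423 and 49.2 CPM. The STAT5 targets Pim1 and Cish lay within 2-fold, at 233 and 14.6 CPM in marrow and 174 and 16.0 CPM in spleen.

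**Figure D4:**
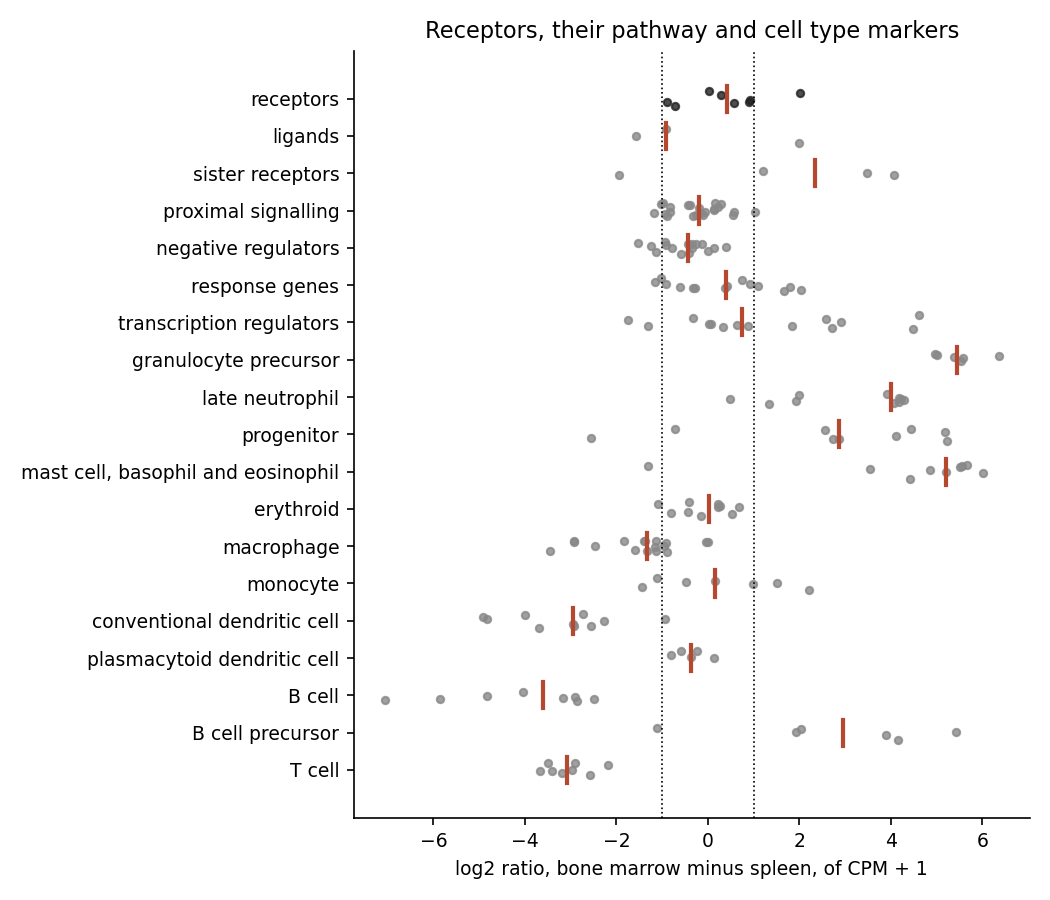
Each point is 1 measured gene, placed by its log2 difference of CPM + 1 between the marrow and the spleen library (x axis), for the receptors and 18 other gene lists (y axis). Red bars are list medians and dotted lines mark 2-fold; the receptor median of 0.42 lies far inside those of granulocyte precursor genes at 5.45 and B cell genes at -3.61.

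The genes whose levels were most like each receptor were sought among the 179 measured genes of the lists, by distance in log2(CPM + 1) over the 2 libraries. With only 2 libraries this compares a level and a ratio, not a pattern across conditions. The nearest gene was Lyn for Csf1r (distance 0.23), Pik3cg for Csf2ra (0.11), Spi1 for Csf2rb (0.21), Cebpb for Csf2rb2 (0.18) and Tfrc for Kit (0.06). Csf3r had Ly6c2 nearest at 0.37 and Flt3 had Tcf4 at 0.32.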

How the data were processed

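Gene tables of 2 libraries were used. Per the file headers, each row of the authors' deposited tables gives a gene's raw count (uniquely placed reads), length in bases, percent of bases under a read, and RPKM. The sources used here name no aligner, counter, build or annotation. Counts summed to the header totals, and recomputed RPKM differed by at most 6.7e-06 percent. Tables were joined on the Entrez identifier, 16379 of 16428 of which matched RefSeq (GRCm38.p6), and a gene absent from a table was given 0 reads.

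CPM were computed with edgeR 4.0.16 in R 4.3.3, with TMM factors of 0.977 (marrow) and 1.02 (spleen). A gene was measured if it reached 1 CPM and 10 reads in either library, and called at 2-fold on log2(CPM + 1), a scale that understates the fold of low genes. With 1 library per tissue no p-value was computed. Folds are CPM ratios whose 95% intervals (exact conditional binomial, by Clopper-Pearson) cover only counting error, and reads amplified by PCR without molecular identifiers are not independent molecules. The scaling, intervals and calls were tested on simulated Poisson counts. Few genes were changed there, evenly in both directions, so scaling was not tested at the share of differing genes seen here. Poisson draws hold counting error only. Receptors and the 18 other lists (190 genes) were chosen with earlier results of these data known. Genes named were the receptors, ligands and related receptors, and in other lists those with the largest differences or the highest RPKM, with some named after their values were seen (Cxcr2, Siglec1, Treml4, Stat5a, Stat5b, Pim1, Cish and similar examples). Some genes counted in the lists are not reported here by name. The settings varied were scaling (DESeq2 1.42.0 size factors, plain totals, or TMM without cell type markers), the pseudocount (0.1 or 5), the floor (none or 10 CPM), the limit (4-fold), the unit (deposited RPKM) and, chosen after seeing the data, the uniquely placeable length.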

Additional observations from a re-analysis of the deposited data

How the results depend on the processing

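No paired analysis was possible because each tissue had 1 library, and for the same reason no replicate could be left out. Csf3r was the 1 receptor past the limit towards bone marrow, with 0 past it towards spleen, under each of 9 other settings. The share of measured genes past the limit towards marrow was 4.42 percent under the 4-fold rule and 9.59 to 16.1 percent otherwise. The 4-fold rule was passed narrowly: the fold of 4.08 had an interval of 3.71 to 4.49, which includes 4. With plain totals, a pseudocount of 5 or the deposited RPKM, the log2 difference (1.95, 1.95 and 1.90) would fall short of 4-fold. The log2 difference of Csf3r ranged from 1.90 with the deposited RPKM to 2.03 with a pseudocount of 0.1. Those of Csf1r ranged from -0.95 to -0.87, of Flt3 from -0.79 to -0.69, of Csf2rb from 0.83 to 0.92, of Kit from 0.82 to 0.91, of Csf2rb2 from 0.47 to 0.57 and of Csf2ra from 0.22 to 0.29. All 63 recomputed differences lay within the counting interval of the fold. Changing the floor alters only which genes are measured, so those settings could not move a difference. Epor, not measured with a floor of 10 CPM, ranged from -0.03 to 0.04 and so had no settled direction. With uniquely placeable length, chosen after seeing the data, the marrow ratio of Flt3 to Csf2rb2 turned from 1.12 to 0.898. Depth limits Epor, at 65 and 57 reads, and the ligands.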

Other observations

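The alpha chains that share the common beta chain did not lean together. Il5ra was at 5.42 CPM in marrow and 23.6 CPM in spleen, while Epx and Prg2, which encode eosinophil granule proteins, were at 169 and 450 CPM in marrow and 2.36 and 8.87 CPM in spleen. Csf1r kept a similar ratio to Flt3 in both libraries, 2.61 (2.39 to 2.86) in marrow and 2.92 (2.72 to 3.14) in spleen, and its ratio to Kit was 1.05 and 3.63.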
